A study of Mus musculus with 59 samples.

Results

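The variable segments of the Igκ light-chain genes were examined in the mRNA of immature B cells. All entries of the expression tables whose name begins with Igkv were taken, which gave 103 genes of 24728 genes with a value in every library. The cells were IgMb immature B cells, which were isolated from bone marrow by ex vivo flow-cytometric sorting. A total of 5 poly(A)-selected mRNA libraries was compared, of which 2 carried the label Igh(Δ890/+) and 3 the label Igh(P4V/P4V). The Δ890 allele lacks the distal part of the VH gene cluster at the heavy-chain locus, and the P4V allele carries the PAIR4 element together with the enhancer V8.7E at the point of this deletion. The deletion is therefore shared by the mutant allele of both genotypes. The study's text names the immature B cells with the P4V allele both as homozygous for P4V and as heterozygous, with the mutant C57BL/6 allele combined with a wild-type 129/Sv allele, where the b allotype of IgM marks cells that use the mutant allele. These libraries are called Igh P4V below, and those of the other genotype Igh Δ890/+. For the Igh Δ890/+ cells, the text gives a C57BL/6 Δ890 allele combined with a wild-type 129/Sv allele. Whether the strain background differed between the groups is therefore not known. No Igh +/+ library of immature B cells was used here. The age of the mice is not given in the sources used here, and the labels do not say that each library came from a separate mouse, so that all p-values measure the spread between libraries.

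An Igκ light chain is made when the RAG recombinase joins a Vκ gene to a Jκ segment in pre-B cells. Each Vκ gene carries a recombination signal sequence with a 12-base spacer next to its last exon, and the Jκ segments carry the partner signal. Vκ genes lie in both orientations, so that they are joined either by deletion or by inversion of the DNA between them. A rearranged Vκ gene is transcribed from its own promoter, in which an octamer motif bound by Oct factors is a known element. The amount of a Vκ mRNA in a population thus depends on the number of cells that carry this gene and on the mRNA per cell, which cannot be told apart in bulk samples.

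The sorted cells expressed markers of B cells. Cd79a, a signalling subunit of the antigen receptor, ranged from 9495 to 10845 TPM (the level of a transcript per gene length, scaled to the same total in each library) over the 5 libraries, and Cd79b, the other signalling subunit, from 5575 to 6035 TPM. The summed level of the 5 plasma cell markers was 236 to 250 TPM in Igh Δ890/+ and 216 to 402 TPM in Igh P4V, and that of the 6 markers of pro-B and pre-B cells was 78.3 to 94.4 TPM and 76.0 to 185 TPM, respectively. The 6 myeloid markers summed to 2355 to 2976 TPM in Igh Δ890/+ and to 1829 to 5824 TPM in Igh P4V, with the highest value in Igh P4V library 3. The 5 T cell markers reached at most 7.85 TPM and the 2 NK cell markers at most 1.74 TPM in sum. The 4 markers of mature B cells summed to 342 to 562 TPM, and the 4 erythroid markers to 387 to 444 TPM, of which Hbb-b1 was at 0 in every library.

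Of the 103 Igkv genes, 100 were found in the mm9 annotation, and all of these lie on chromosome 6 within 3166 kb upstream of the first Jκ segment (Igkj1, chr6:70672556-70672593). The orientation of 38 of them is that of the Jκ segments, and 62 lie in the opposite orientation. Igkv3-5, Igkv13-87 and Igkv2-95-2 were not matched. The recombination signals are shown for 6 of the most expressed genes, as read from the C57BL/6 reference (mm9) in the 5′ to 3′ direction of each gene, with the heptamer and the nonamer in capitals and the spacer in lower case.
Igkv14-126 (chr6:67846637-67846664, plus strand): CACGTTGatacaagtaataACATAAACC
Igkv1-117 (chr6:68071822-68071849, plus strand): CACAGTGatacagaccctaACAAAAATA
Igkv19-93 (chr6:68686263-68686290, minus strand): CACAGTGatacaaatcataACAAAAACC
Igkv3-2 (chr6:70649062-70649089, plus strand): CACAGTGctccagggctgaACAAAAACC
Igkv6-15 (chr6:70356435-70356462, minus strand): CACAGTActtcagcctcctACATAAACC
Igkv2-137 (chr6:67506211-67506238, plus strand): CACAGTGatacagccctgaACAAAAACC
The consensus heptamer CACAGTG was found at 84 of 99 genes, and at 32 genes the nonamer also had the consensus letters ACAAAAACC. Only the stretch that best matched these letters between 5 bases before and 10 bases after the annotated end of the gene was read. Igkv10-96 was left out because its gene model is only 123 bases long. The most expressed gene, Igkv14-126, did not carry the consensus heptamer but matched it in 5 of 7 letters. The 5 genes that matched it in 5 or fewer letters were Igkv14-126, Igkv4-91, Igkv12-47, Igkv1-115 and Igkv1-131, the last of which was listed at 0 in 3 libraries. At Igkv1-115 and Igkv1-131, the heptamer and nonamer together matched in only 7 letters, so that no recombination signal was identified there. The median share was 0.529% for the 84 genes with the consensus heptamer and 0.311% for the 10 genes with 1 other letter. It was 0.0638% for the 5 genes named here, but these include Igkv1-115 and Igkv1-131, where no signal was identified. Of the others, Igkv14-126 had a mean share of 7.94%, Igkv4-91 of 0.498% and Igkv12-47 of 0.0638%. Spearman's rho between the number of matching letters of heptamer and nonamer together and the mean share was 0.083 across the 99 genes, a description across genes of the same libraries.

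The octamer ATTTGCAT in the orientation of the gene was present in the 250 bases before the start of 59 (72.8%) of the 81 Igkv genes whose model has 2 exons and begins with a start codon. By comparison, 2.26% of 22730 protein-coding and immunoglobulin variable genes contained it on either strand in a window of the same length. It began 83 to 109 bases before the annotated start, at a median of 101 bases. Windows are printed for 3 of the most expressed genes, with the octamer in capitals.
Igkv14-126 (chr6:67846069-67846098, plus strand): ggttctcaatgATTTGCATgctctcacttc
Igkv19-93 (chr6:68686838-68686867, minus strand): agatgaagctgATTTGCATgtgctgagatc
Igkv3-2 (chr6:70648359-70648388, plus strand): atactctgctgATTTGCATatgaaataatt
All 17 Igkv4 genes and all 7 Igkv3 genes that could be searched contained these letters, whereas none of the 8 Igkv6 and 6 Igkv8 genes did. The genes without the octamer were not the less expressed ones, as their median share was 1.14%, while that of the genes with the octamer was 0.481%. The absence of these exact letters says nothing about variant octamers.

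The Igkv genes were expressed at a similar total level in both genotypes. Their summed level was 8366 and 7606 TPM in the 2 Igh Δ890/+ libraries and 7838, 9235 and 7166 TPM in the 3 Igh P4V libraries. The group means were 7986 ± 538 TPM (SD, n = 2) and 8080 ± 1055 TPM (SD, n = 3), and the libraries overlapped (p = 1, exact permutation test, two-sided). This test has 10 splits of 2 against 3 libraries and cannot give a two-sided p-value below 0.2, so that no comparison of single values could pass a threshold of 0.05. The Igkv genes accounted for 0.717 to 0.923% of all TPM. Igkc, the constant segment of the Igκ chain, amounted to 19662 and 18716 TPM in Igh Δ890/+ and to 19474, 22371 and 18764 TPM in Igh P4V. The summed Igkv level was thus 38.2 to 42.5% of the Igkc level in every library.

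A total of 99 to 101 Igkv genes was detected above 0 TPM in each library, and 98 genes reached a mean of at least 1 TPM. Expression was unequal. The 10 highest genes made up 41.1% of the Igkv mRNA, the 36 genes with a mean share of at least 1% made up 79.3%, and the 53 genes below rank 50 together only 9.99%. The top gene exceeded the median Igkv gene (39.0 TPM) by 16.3-fold. Igkv8-26, Igkv13-87, Igkv17-134 and Igkv1-131 had a mean below 1 TPM, and Igkv2-95-2 was listed at 0 in all libraries.

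Igkv14-126 was the highest Igkv gene in every library. It took 10.7 and 7.36% of the Igkv mRNA in Igh Δ890/+ and 8.73, 5.82 and 7.11% in Igh P4V, or 895, 560, 684, 537 and 509 TPM. The libraries of both genotypes overlapped, as Igh P4V library 1 lay above Igh Δ890/+ library 2. Igkv1-117 followed with 5.31 and 5.90% in Igh Δ890/+ and with 5.29, 4.99 and 4.57% in Igh P4V. The shares of Igkv19-93 were 4.30 and 5.08% in Igh Δ890/+ and 4.55, 4.70 and 5.20% in Igh P4V. In every library, 7 genes were among the 10 highest, although their order changed. Igkv1-135 had a mean share of 4.33 ± 0.308% (SD, n = 5), Igkv1-110 of 4.11 ± 0.411%, Igkv3-2 of 3.73 ± 0.335%, Igkv3-4 of 2.93 ± 0.327%, Igkv3-7 of 2.90 ± 0.366% and Igkv2-137 of 2.58 ± 0.350%. The ranges over the libraries overlapped for all neighbours in this order of the 10 genes. Igkv6-15 varied more. Its shares were 2.27 and 1.99% in Igh Δ890/+ and 3.72, 3.51 and 1.73% in Igh P4V, with the lowest value in the third Igh P4V library.

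**Figure D1:**
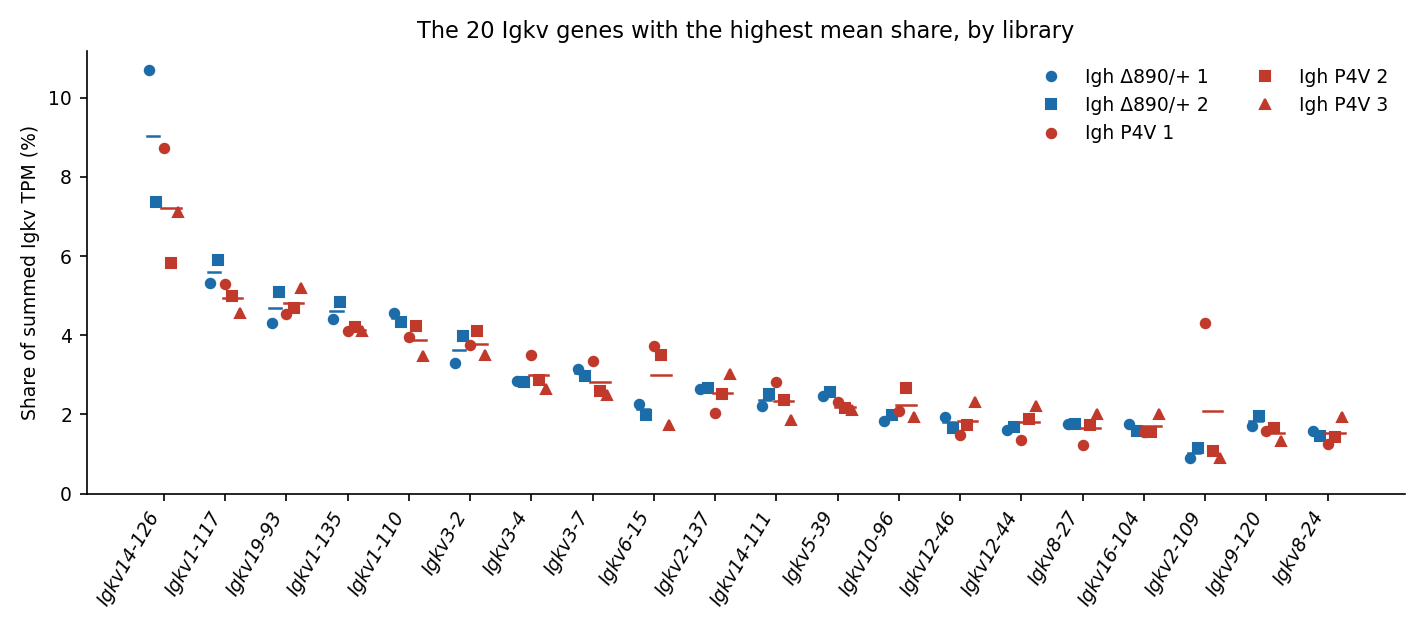
Share of the summed Igkv TPM (y axis, %) of the 20 Igkv genes with the highest mean share (x axis) in each library. Symbols show single libraries and horizontal lines the mean of each genotype (Igh Δ890/+, n = 2, blue; Igh P4V, n = 3, red). Igkv14-126 is highest in all libraries, and Igkv2-109 lies at 4.31% in Igh P4V library 1 and at 0.886 to 1.16% in the others.

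The 10 genes with the highest mean shares comprised 8 genes in Jκ orientation and 2 in the opposite orientation, namely Igkv19-93 and Igkv6-15. The 38 genes in Jκ orientation contributed 54.7% of the Igkv mRNA on average, with 56.3 and 54.7% in Igh Δ890/+ and 58.6, 54.3 and 49.5% in Igh P4V. The 62 genes in the opposite orientation contributed 44.1%. The median share per gene was 0.892% in the first and 0.414% in the second set. By the number in the gene name, which counts from the Jκ side, the 38 proximal genes (up to 46) held 39.7 and 40.0% of the Igkv mRNA in Igh Δ890/+ and 40.1, 41.1 and 40.8% in Igh P4V. The genotypes did not overlap, but differed in their means by only 0.816 percentage points (p = 0.2, exact permutation test, the smallest possible), and by 0.0140 without Igkv14-126. The 32 middle genes (47 to 92) held 12.8 and 13.5% in Igh Δ890/+ and 10.8, 12.6 and 16.4% in Igh P4V, and only 2 of them, Igkv4-53 and Igkv1-88, had a mean share of at least 1%. The 33 distal genes (93 and above) held 47.5 and 46.5% in Igh Δ890/+ and 49.1, 46.3 and 42.8% in Igh P4V. The middle and distal shares of the genotypes overlapped, and for both the third Igh P4V library was at the end of the range. Both ends of the locus were expressed. Igkv3-1, which has the lowest number, had 49.6 and 47.6 TPM in Igh Δ890/+ and 42.5, 62.3 and 55.4 TPM in Igh P4V, and Igkv2-137, with the highest number among the expressed genes, 222 and 202 TPM in Igh Δ890/+ and 160, 233 and 216 TPM in Igh P4V.

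**Figure D2:**
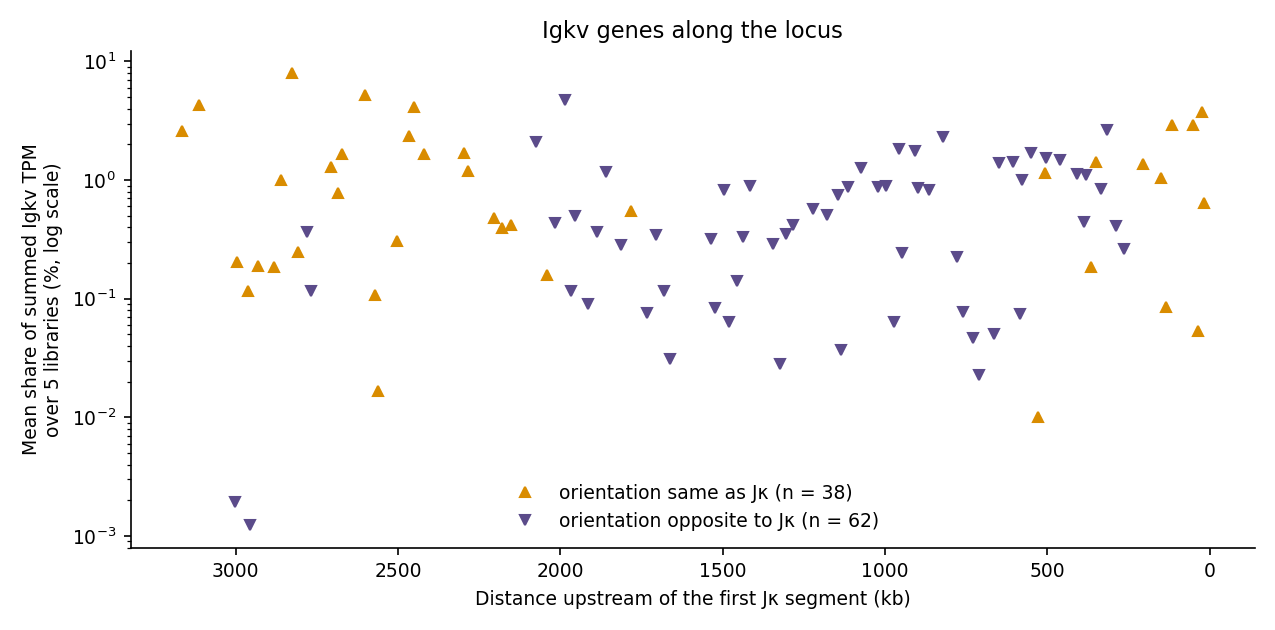
Mean share of the summed Igkv TPM over the 5 libraries (y axis, %, log scale) against the distance of each gene upstream of the first Jκ segment (x axis, kb, with the Jκ side on the right). Each symbol is 1 of 100 annotated genes, with upward triangles for Jκ orientation (38 genes) and downward triangles for the opposite orientation (62 genes). Genes with a share of at least 1% are found 20 times among the proximal, 2 times among the middle and 14 times among the distal genes when those not in the annotation are included.

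The genes belong to 19 families, which group Vκ genes of similar sequence. The 11 Igkv1 genes contributed most, with 16.6 and 17.6% in Igh Δ890/+ and 16.6, 19.3 and 14.2% in Igh P4V. By the mean over the libraries, the 9 Igkv3 genes followed with 13.4 and 13.95% in Igh Δ890/+ and 15.5, 13.99 and 12.7% in Igh P4V. They were exceeded by Igkv14 in Igh Δ890/+ library 1 and by Igkv4 in Igh P4V library 3. The 4 Igkv14 genes, including Igkv14-126, had 13.6 and 10.6% in Igh Δ890/+ and 12.2, 8.84 and 9.45% in Igh P4V. The largest family by number is Igkv4 with 26 genes, but its median gene had only 25.8 TPM, and the whole family made up 9.55 and 10.2% in Igh Δ890/+ and 8.10, 9.61 and 13.5% in Igh P4V. Igkv4-53, its highest member, had a mean share of 1.26%. A single gene represents Igkv19 (Igkv19-93, 4.77%), Igkv16 (Igkv16-104, 1.69%), Igkv15 (Igkv15-103, 1.19%), Igkv11 (Igkv11-125, 0.249%), Igkv7 (Igkv7-33, 0.0502%) and Igkv18 (Igkv18-36, 0.0468%). The highest members of the other families were Igkv5-39 (2.32%), Igkv10-96 (2.10%), Igkv12-46 (1.82%), Igkv8-27 (1.69%), Igkv9-120 (1.64%), Igkv17-127 (1.01%) and Igkv13-84 (0.552%).

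In 12 of the 19 families, the highest share was less than 1.5 times the lowest. The families Igkv5, Igkv17 and Igkv18 were lower in Igh P4V without overlap, each with p = 0.2 by the exact permutation test, which was not adjusted for the 19 families. For Igkv5, the shares were 4.70 and 4.83% against 4.03, 4.16 and 4.31%. No family was higher in Igh P4V without overlap. Within the Igkv4 family, 19 of 26 genes had their highest share in Igh P4V library 3, and 16 had their lowest in Igh P4V library 1. In the other families, 24 of 72 genes were highest in library 3 and 29 were lowest in library 1. These libraries belong to the same genotype. The myeloid markers summed to 5824 TPM in library 3 and to 1829 TPM in library 1, the highest and the lowest of all libraries, and their part in this result was not tested.

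**Figure D3:**
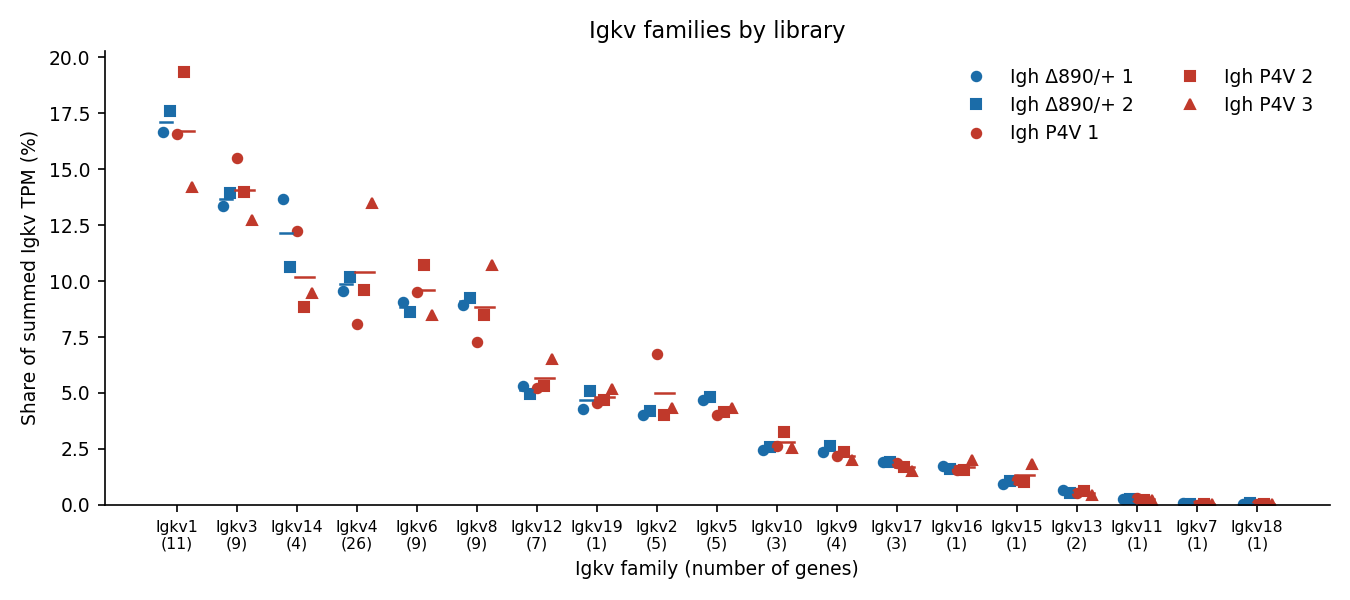
Share of the summed Igkv TPM (y axis, %) of each of the 19 Igkv families (x axis, with the number of genes) in each library. Symbols show single libraries and horizontal lines the mean of each genotype (Igh Δ890/+, n = 2, blue; Igh P4V, n = 3, red), and the Igh P4V libraries spread from 8.10 to 13.5% for Igkv4.

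The distance between the repertoires of 2 libraries was computed as the part of the Igkv mRNA that would have to be assigned to other genes to make both equal. The 2 Igh Δ890/+ libraries were 6.12% apart. The 6 pairs of libraries of different genotype were 9.01 to 11.9% apart, whereas the 3 pairs of Igh P4V libraries were 12.5 to 16.7% apart. Hence, each pair of Igh P4V libraries was further apart than any pair of different genotype. Libraries 1 and 3 of Igh P4V formed the most distant pair. In all 10 pairs, the order of the 103 genes was similar (Spearman's rho = 0.932 to 0.994, a description). The effective number of Igkv genes, the number of equally expressed genes that would give the same diversity (exponential of the Shannon entropy), was 51.3 and 53.7 in Igh Δ890/+ and 50.3, 53.9 and 56.6 in Igh P4V. Its means were 52.5 ± 1.70 (SD, n = 2) and 53.6 ± 3.16 (SD, n = 3; p = 0.8, exact permutation test). The 10 highest genes held 43.5 and 41.9% in Igh Δ890/+ and 43.0, 39.5 and 37.8% in Igh P4V (p = 0.4, exact permutation test). It took 13 and 14 genes in Igh Δ890/+ and 12, 14 and 16 genes in Igh P4V to reach 50% of the summed Igkv TPM.

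To compare the genotypes for each gene, log2(TPM + 1) was tested with limma over all 11681 genes that averaged 1 TPM or more. None of the 98 Igkv genes tested passed an adjusted p-value of 0.05 (limma, Benjamini-Hochberg, lowest adjusted p = 0.893), and 8 had an unadjusted p-value below 0.05. When all values were divided by the summed Igkv TPM instead, 3 Igkv genes passed (Igkv1-122, Igkv1-99 and Igkv7-33), each of them with overlap between the genotypes. Genes other than Igkv genes also passed in this setting, with the count given below. There, limma estimated infinite prior degrees of freedom, so that the spread of each gene itself had no weight. Among all genes, 1 (0.00856%) passed the adjusted threshold, the VH gene Ighv1-82, which is named here after its values were seen, and 4.47% had an unadjusted p-value below 0.05. The median difference of the Igkv genes on the log2 scale was -0.04, close to that of all genes (-0.03), and 90 of the 98 differences were within 0.5 of 0. The median standard error of an Igkv difference was 0.20. The Igkv genes did not overlap between genotypes in 4 cases with higher values in Igh P4V (background of all genes, 6.94%) and in 8 cases with lower values (background, 16.2%). Both counts were 4.08% and 8.16% of the Igkv genes, respectively, below these background shares. This depended on the scale. As shares of the summed Igkv TPM, 2 genes (2.04%) were higher and 18 (18.4%) lower without overlap, while 3.22 and 9.6% of all genes were so when scaled in the same way.

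Among these genes, Igkv15-103 had 80.0 and 80.2 TPM in Igh Δ890/+ and 88.2, 93.6 and 130 TPM in Igh P4V. Its log2 difference was 0.35 ± 0.16 (SE; limma, adjusted p = 0.893), but 0.18 without Igh P4V library 3. Igkv4-91 had 35.3 and 35.1 TPM in Igh Δ890/+ and 47.8, 42.2 and 38.8 TPM in Igh P4V. For Igkv6-29 (log2 difference 0.16) and Igkv8-28 (0.10) the separation was smaller. In the other direction, Igkv1-115 was detected at 2.06 and 1.98 TPM in Igh Δ890/+ and at 0.728, 0.698 and 1.17 TPM in Igh P4V, a log2 difference of -0.70 ± 0.17 (SE). It had the lowest unadjusted p-value of all Igkv genes (limma, p = 0.00458; adjusted p = 0.893). Igkv14-130 had 18.9 and 19.1 TPM in Igh Δ890/+ and 13.5, 14.8 and 9.16 TPM in Igh P4V. The differences of Igkv18-36 (-0.61), Igkv6-14 (-0.43) and Igkv8-18 (-0.37) were also without overlap. That of Igkv18-36 was -0.32 without Igh Δ890/+ library 2, and that of Igkv6-14 was -0.27 without Igh Δ890/+ library 1 and -0.26 without Igh P4V library 1. Igkv15-103, Igkv8-28 and Igkv1-88, a further gene that was lower without overlap (105 and 105 TPM as compared with 78.8, 101 and 76.9 TPM), had mean shares above 1%, and the other 9 genes contributed less.

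**Figure D4:**
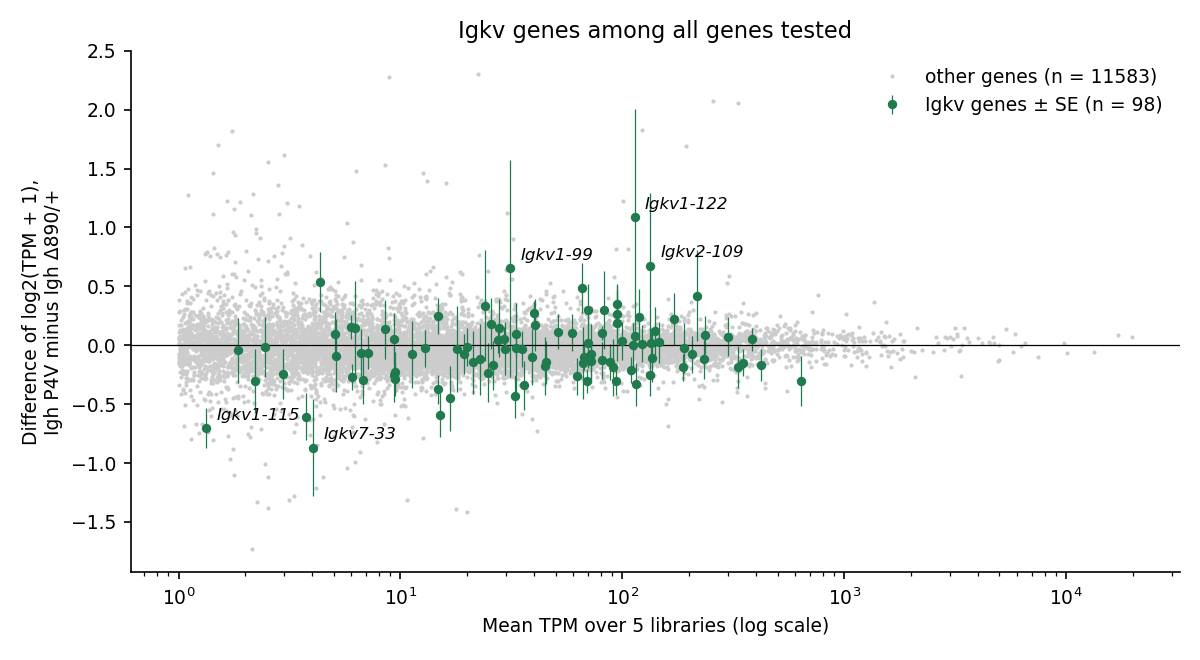
Difference of log2(TPM + 1) between Igh P4V (n = 3) and Igh Δ890/+ (n = 2) on the y axis against the mean TPM of the 5 libraries on the x axis (log scale). Green circles show the 98 Igkv genes tested with the standard error, and grey dots the 11583 other genes. The largest Igkv differences are those of Igkv1-122 (1.09), which is high in 1 Igh P4V library, and Igkv7-33 (-0.87).

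Larger differences than those between the genotypes were found in single libraries. The level of 4 of 98 Igkv genes (4.08%) was more than 2 times as high in 1 library as in any other, which applied to 52 (0.445%) of all genes tested. Igkv1-122 had 46.9 and 37.9 TPM in Igh Δ890/+ and 47.6, 395 and 39.1 TPM in Igh P4V. Its share was thus 4.28% in Igh P4V library 2 and 0.499 to 0.607% in the other 4 libraries. Igkv2-109 had 74.1 and 87.8 TPM in Igh Δ890/+ and 338, 98.8 and 64.8 TPM in Igh P4V, where library 1 was the high one. Igkv1-99 was also high in this library, with 14.7 and 14.8 TPM in Igh Δ890/+ and 103, 15.3 and 8.04 TPM in Igh P4V. Igkv7-33 was high in Igh Δ890/+ library 1 (8.04 TPM, as compared with 1.15 to 3.99 TPM). The log2 differences of Igkv1-122 (1.09 ± 0.92, SE) and Igkv2-109 (0.68 ± 0.62, SE) did not pass the test (limma, adjusted p = 0.893 and 0.9), and were 0.0313 without Igh P4V library 2 and -0.0118 without Igh P4V library 1, respectively. Without Igh P4V library 3, they were 1.68 and 1.17. That of Igkv7-33 (-0.87) was -0.40 without Igh Δ890/+ library 1, -1.33 without Igh Δ890/+ library 2 and -0.50 without Igh P4V library 1.

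Some other immunoglobulin genes also differed between single libraries. Jchain, which encodes the chain that joins secreted IgM and IgA, was detected at 65.6 and 32.6 TPM in Igh Δ890/+ and at 185, 181 and 39.1 TPM in Igh P4V, and hence was high in the libraries with high Igkv1-122, Igkv2-109 and Igkv1-99 but not in Igh Δ890/+ library 1, where Igkv7-33 was high. Igha, the constant gene of IgA, had 54.3 and 33.2 TPM in Igh Δ890/+ and 59.6, 294 and 24.1 TPM in Igh P4V. It was high only in Igh P4V library 2. The sum of 6 switched constant genes (Igha, Ighg1, Ighg2a, Ighg2b, Ighg3 and Ighe), which were chosen after their values were seen, was 46.3 to 72.7 TPM in Igh Δ890/+ and 95.3, 489 and 38.1 TPM in Igh P4V. Of the other plasma cell markers, Tnfrsf17 was at 1.19 and 0.729 TPM in Igh Δ890/+ and at 3.68, 2.16 and 1.19 TPM in Igh P4V. Prdm1 was at 0.994 and 1.00 TPM in Igh Δ890/+ and at 2.11, 1.87 and 1.14 TPM in Igh P4V. Sdc1 had 27.8 and 28.9 TPM in Igh Δ890/+ and 35.5, 34.1 and 27.4 TPM in Igh P4V. Xbp1 had 154 and 173 TPM in Igh Δ890/+ and 176, 182 and 147 TPM in Igh P4V. Each of these markers was highest in Igh P4V libraries 1 and 2. In Igh P4V library 2, Igll1 and Vpreb1, the genes of the surrogate light chain of earlier B cell stages, were also high, at 73.8 and 39.1 TPM, as compared with at most 19.8 and 12.9 TPM in the other libraries. Of the other 4 markers of pro-B and pre-B cells, Dntt was also highest there (24.8 TPM, as compared with 7.20 to 9.06 TPM), whereas Kit, Il7r and Il2ra were highest in other libraries. The part of the cells that express these genes in the Igkv levels was not tested. When the 4 Igkv genes were left out, the distances were 6.05% between the Igh Δ890/+ libraries, 6.84 to 11% between genotypes and 9.21 to 15.2% within Igh P4V, so that the ranges of the last 2 kinds of pairs overlapped.

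**Figure D5:**
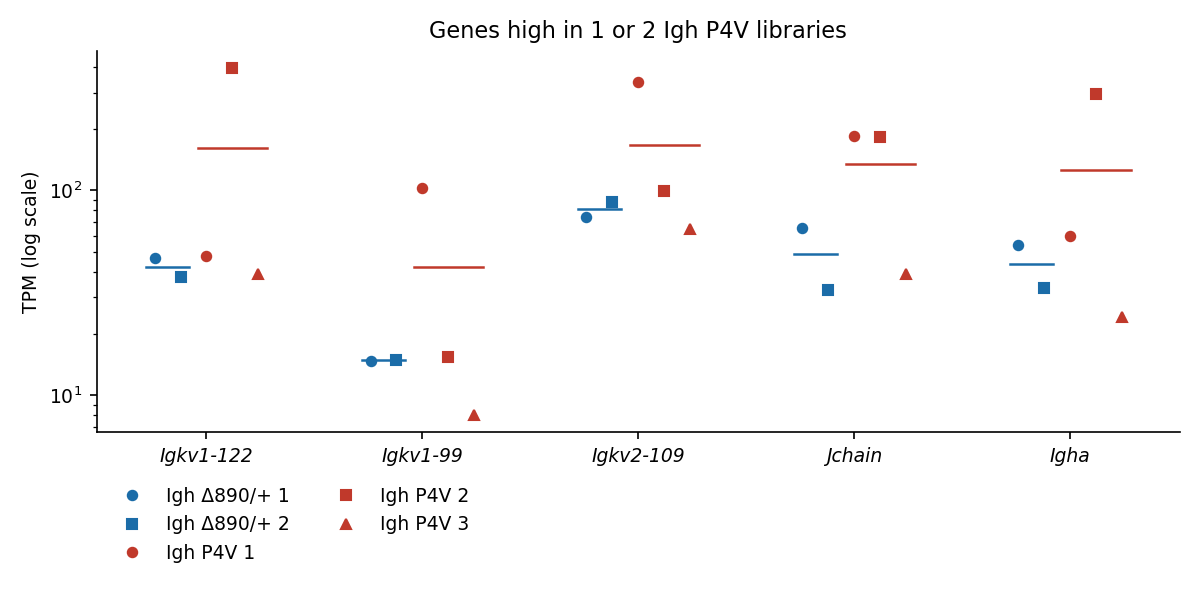
Level in TPM (y axis, log scale) of 3 Igkv genes, Jchain and Igha (x axis) in each library. Symbols show single libraries and horizontal lines the arithmetic mean of each genotype (Igh Δ890/+, n = 2, blue; Igh P4V, n = 3, red). Igkv1-122 and Igha are highest in Igh P4V library 2, Igkv1-99 and Igkv2-109 in Igh P4V library 1, and Jchain is high in both.

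Most abundant Igkv genes varied little. The median coefficient of variation of the share over all 5 libraries was 15.5% for the 36 genes with a mean share of at least 1%, and the highest share was less than 2 times the lowest for 32 of them. For all 98 genes tested, the median coefficient of variation was 19.7%, and 75 genes stayed within this factor. As reads that map to several places were not counted, similar genes may be underestimated. A median of 77.7% of the 50-base windows of a gene occurred only once within the annotated Igκ locus, 22 genes were free of repeated windows, and for 12 genes fewer than 50% were unique. Among the highest genes, Igkv14-126 and Igkv19-93 had 100% and Igkv1-117 and Igkv1-110 only 56.5 and 55.8% unique windows.

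The other light-chain genes were compared between the genotypes from a list of 21 genes, of which 20 were tested. None passed the adjusted threshold (limma), 3 had an unadjusted p-value below 0.05 (4.47% of all genes), 1 was higher (6.94% of all genes) and 6 were lower (16.2%) in Igh P4V without overlap, and the median log2 difference was -0.26, as compared with -0.03 over all genes. The Jκ segments as separate entries summed to 1523 and 1333 TPM in Igh Δ890/+ and to 937, 1295 and 1101 TPM in Igh P4V. Igkj3 showed the lowest p-value, with 203 and 176 TPM in Igh Δ890/+ and 117, 153 and 134 TPM in Igh P4V (log2 difference -0.50, limma, adjusted p = 0.893). Among the lambda genes, Iglc1 had 3806 and 3617 TPM in Igh Δ890/+ and 3428, 3379 and 2580 TPM in Igh P4V. Iglv1 had 523 and 471 TPM in Igh Δ890/+ and 418, 507 and 271 TPM in Igh P4V. The Igkv genes thus made up 90.0 and 90.3% of the summed Igkv and Iglv level in Igh Δ890/+ and 91.7, 91.5 and 93.9% in Igh P4V. The genotypes did not overlap in this share. Its mean was 2.18 percentage points higher in Igh P4V, with p = 0.2 in the exact permutation test, and 1.44 percentage points higher without Igh P4V library 3. The level of this balance depended on the entries used. Igkc made up 71.9 and 72.5% of the summed Igkc and Iglc level in Igh Δ890/+ and 74.7, 76.7 and 77.1% in Igh P4V. The means of this second share differed by 3.94 percentage points, also without overlap.

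Of 22 regulators of Igκ recombination and transcription, none passed the adjusted threshold or an unadjusted p-value of 0.05 in limma. Without overlap, 1 was higher in Igh P4V (6.94% of all genes), namely Nfkb1 (log2 difference 0.04). The 6 that were lower (16.2% of all genes) were Tcf4, Tcf12, Pou2af1, Foxo1, Pax5 and Ebf1. Their log2 differences ranged from -0.15 for Foxo1 to -0.08 for Pax5. The median log2 difference of the regulators was -0.07, as compared with -0.03 over all genes. Irf4, a factor that activates the Igκ locus in pre-B cells, had 105 and 112 TPM in Igh Δ890/+ and 111, 119 and 109 TPM in Igh P4V. Spib, encoding its partner Spi-B, had 5043 and 5368 TPM in Igh Δ890/+ and 5118, 4680 and 4568 TPM in Igh P4V. Rag1, encoding a subunit of the recombinase, had 11.5 and 16.98 TPM in Igh Δ890/+ and 9.99, 12.8 and 11.2 TPM in Igh P4V, with overlap of the genotypes.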

How the data were processed

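Poly(A) RNA of IgMb immature B cells was converted to cDNA and sequenced in single-read mode. The authors removed ribosomal reads, aligned the reads to the mouse genome with TopHat guided by a transcriptome, removed duplicates, counted uniquely mapping reads on genes with featureCounts (version 1.5.0 per the submitters' processing notes) and deposited TPM values. Lambda-locus entries are marked as taken from mm10, and all others were treated as mm9. Because TPM values hold no read numbers, sequencing depth and counting error are unknown, and no intervals are given. In 2 libraries, 4 and 1 entries held no value and were left out. The other libraries of the series, which measure heavy-chain recombination, were not used.

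Shares are percentages of the summed Igkv TPM of a library. Log2(TPM + 1) was tested with limma (version 3.58.1 in R 4.3.3, lmFit and eBayes with trend) over genes averaging 1 TPM or more and with Benjamini-Hochberg adjustment over all of them. Differences on this scale understate the change of genes with low TPM. Single values were compared by exact permutation tests (SciPy 1.17.1, two-sided) without adjustment. Gene positions, signals and promoters were read from the mm9 genome with the GENCODE M1 annotation. The alternatives were other pseudocounts (0.1 and 5), filters, scalings and normalizations, limma without trend, and leaving out each library.

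The members, lists and tests were chosen with earlier results of these data known. The named genes are the 10 with the highest mean share, the highest of each family, those past the threshold, up to 5 increases and 5 decreases without overlap, the genes with the lowest and highest number, and the 3 with the largest coefficient of variation above 100 TPM.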

Additional observations from a re-analysis of the deposited data

How the results depend on the processing

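No Igkv gene passed the adjusted threshold under any alternative except scaling to the summed Igkv TPM, where 2 were higher (Igkv1-122 and Igkv1-99) and 1 was lower (Igkv7-33) in Igh P4V. In this setting, 85 of all 11686 genes tested passed, as compared with 3 of the 98 Igkv genes. An unadjusted p-value below 0.05 was found for 13 Igkv genes (13.3%, against 3.32% of all genes). Without overlap, 2 Igkv genes (2.04%, against 3.22% of all genes) were higher and 18 (18.4%, against 9.6% of all genes) lower. Here, limma estimated infinite prior degrees of freedom, so that the spread of each gene itself had no weight, and all 3 genes overlapped between the genotypes. The count of all genes past the threshold was 0 with a pseudocount of 0.1 or 5, after rescaling without immunoglobulin genes, with quantile normalization and without trend, and 2 without the filter on low values, whereas 1 had passed in the reported setting. When each library was left out in turn, between 0 and 4 genes passed in all, 3 to 21 Igkv genes had an unadjusted p-value below 0.05, and 4 to 25 Igkv genes were higher and 12 to 27 lower without overlap. Of all genes, 1.82 to 7.17% had such a p-value, 11.4 to 17.7% were higher and 22.7 to 30.5% lower without overlap, which fewer libraries make more frequent. With all libraries, 8 Igkv genes (8.16%, against 4.47% of all genes) had an unadjusted p-value below 0.05. This count was 21 (21.4%, against 7.17% of all genes) without Igh P4V library 1. It was 19 (19.4%, against 5.89%) without Igh P4V library 2 and 18 (18.4%, against 4.21%) without Igh P4V library 3. Where 1 Igh Δ890/+ library remained, it was assumed to vary like the Igh P4V libraries.

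Some differences between group means (Igh P4V minus Igh Δ890/+) changed direction. Leaving out each library gave ranges of -484 to 550 TPM for the summed Igkv level, -0.413 to 2.73 for the effective number, and in percentage points of the Igkv mRNA -1.71 to 0.841 for Igkv1, -0.301 to 1.09 for Igkv3, -1.02 to 1.67 for Igkv4, -1.20 to 0.503 for Igkv8, -0.0238 to 0.0127 for Igkv11, -0.126 to 0.111 for Igkv16, -0.270 to 0.509 for Igkv19, -1.43 to 1.34 for the middle and -2.46 to 0.697 for the distal genes. Without Igkv14-126, the difference turned to -0.573 for the effective number, -0.0105 for Igkv16, -0.162 for the middle and 0.148 for the distal genes. Without the 4 genes high in 1 library, an alternative chosen after seeing the data, it turned to -135 TPM for the summed level, -0.0948 for Igkv2 and 0.00502 for Igkv11. The proximal share and the Igkv share of Igkv plus Iglv kept their direction under every alternative run for them, but the proximal difference of 0.816 percentage points was 0.0140 (p = 1, exact permutation test) without Igkv14-126 and 2.04 (p = 0.2) without the 4 genes high in 1 library.

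Among 33 named genes, 16 changed direction when a library was left out, with log2 differences of -0.64 to 0.0312 for Igkv14-126, -0.0346 to 0.11 for Igkv19-93, -0.0878 to 0.21 for Igkv3-2, -0.00855 to 0.26 for Igkv3-4, -0.24 to 0.0403 for Igkv3-7, -0.18 to 0.0822 for Igkv2-137, -0.13 to 0.17 for Igkv4-53, -0.25 to 0.12 for Igkv8-27, -0.0119 to 0.40 for Igkv10-96, -0.11 to 0.15 for Igkv11-125, -0.15 to 0.20 for Igkv12-46, -0.41 to 0.0307 for Igkv13-84, -0.12 to 0.16 for Igkv16-104, -0.22 to 0.0393 for Igkv17-127, -0.00171 to 0.27 for Igkv3-1 and -0.0118 to 1.17 for Igkv2-109. With quantile normalization, Igkv11-125 turned to 0.0187. No paired analysis was possible because the labels carry no replicate numbers.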
